A study of Mus musculus with 28 samples.

Results

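In neural stem cells given a non-silencing hairpin, the authors listed 20483 Ctcf summits on assembled mouse chromosomes, each a single position where the Ctcf signal was higher than in cells given hairpins against Ctcf. All 20483 were taken as the members, out of 373485 summits in the 11 lists of the series. The study mapped Smchd1, Ctcf, histone marks and DNA methylation by sequencing in 28 libraries. The Ctcf antibody was applied to 2 libraries of Smchd1 wild-type cells carrying the non-silencing hairpin (a short RNA with no intended target), and the list was called on them against 2 libraries of Smchd1 wild-type cells, 1 carrying the hairpin Ctcf.6 and 1 carrying Ctcf.7. The same 2 hairpin libraries served as the control for the other Ctcf lists, one from untransduced Smchd1 wild-type cells (8292 summits) and one from untransduced Smchd1 null cells (11920 summits). All cells were male neural stem cells of a C57BL/6 x FVB/N background, grown from E14.5 embryo brain with epidermal and basic fibroblast growth factors. The labels call the cells with Ctcf hairpins Ctcf null, but they carry hairpins and not a deletion, and no measure of how much Ctcf was left was used here. A place where Ctcf stayed bound in those cells could therefore be missing from the list, so absence from it does not show absence of Ctcf. The 2 libraries of a group were pooled by the authors, so each summit has 1 score, with no spread between libraries and no test across samples.

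Ctcf is a DNA-binding protein with a row of zinc fingers that reads a long, GC-rich motif. It halts the cohesin ring as it extrudes DNA, and so marks the ends of chromatin loops and insulates genes from the enhancers of their neighbours. Its binding at imprinted control regions is blocked by DNA methylation, and it also binds many promoters, among them those of clustered protocadherin genes in neurons.

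The sequence under promoter summits is shown first. Among 32851 promoter windows (250 bases before to 50 after a gene's start, RefSeq, GRCm38.p6, the assembly of mm10), 933 held a summit, or 2.84% of all. They belonged to 893 genes, 725 of them protein-coding. The stretches below, up to the start of each gene and 5′ to 3′ along its strand, come from 7 of the 10 coding genes with the highest summits in their windows. They are the highest of all, Atp5g2, and the 6 that hold a shorter core, shown so that the letters near a summit can be compared. Capitals mark the shorter Ctcf core AGGNGGC on either strand, where N is any base. The word AGAGGGCG, described below, does not match it and stands in lower case in the stretches of Rapgef1 and Nsfl1c. Capitals therefore do not show which letters Ctcf reads.
Atp5g2, chr15:102671135-102671254, minus strand: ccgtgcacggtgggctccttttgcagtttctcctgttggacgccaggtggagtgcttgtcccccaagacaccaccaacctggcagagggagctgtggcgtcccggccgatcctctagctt
Adprhl2, chr4:126321723-126321842, minus strand: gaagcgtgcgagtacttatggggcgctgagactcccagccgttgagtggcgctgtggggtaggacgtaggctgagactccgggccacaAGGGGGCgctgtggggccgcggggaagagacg
Rapgef1, chr2:29619609-29619719, plus strand: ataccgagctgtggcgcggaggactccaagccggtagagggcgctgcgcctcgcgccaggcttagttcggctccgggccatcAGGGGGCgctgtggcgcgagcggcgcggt
Nipsnap2, chr5:129724923-129725042, plus strand: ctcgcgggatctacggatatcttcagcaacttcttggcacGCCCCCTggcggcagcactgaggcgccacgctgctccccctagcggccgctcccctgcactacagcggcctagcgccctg
Kcnh1, chr1:192190639-192190758, plus strand: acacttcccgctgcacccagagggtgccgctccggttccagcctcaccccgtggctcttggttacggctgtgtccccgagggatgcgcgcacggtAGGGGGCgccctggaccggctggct
Wrap53, chr11:69579411-69579499, minus strand: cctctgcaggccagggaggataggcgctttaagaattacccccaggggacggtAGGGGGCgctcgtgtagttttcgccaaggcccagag
Nsfl1c, chr2:151494084-151494181, plus strand: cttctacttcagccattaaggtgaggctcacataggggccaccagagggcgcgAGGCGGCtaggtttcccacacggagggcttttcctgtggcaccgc
These promoters serve Atp5g2, a subunit of the mitochondrial ATP synthase (score 69.5), Adprhl2, an enzyme that removes ADP-ribose from proteins (53.4), Rapgef1, an exchange factor for Rap GTPases (49.7), and Nipsnap2, a mitochondrial protein (47.4). The others serve Kcnh1, a voltage-gated potassium channel (42.4), Wrap53, a telomerase-associated protein whose gene starts beside Trp53 (36.6), and Nsfl1c, a cofactor of the p97 ATPase (36.3). The shorter core stood in 6 of the 10 highest stretches, and the full core CNAGGNGGC, which contains it, in 3, those of Adprhl2, Nipsnap2 and Nsfl1c. In the stretches of Atp5g2, Comtd1, Sh3glb1 and Irak2 these letters were not found, which says nothing on whether Ctcf binds there. All 10 had H3K4me3 within 1 kb, and their summits lay 38 to 221 bp before the start.

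Promoters with a summit held the full core more often than the rest. It was found on either strand in 270 of the 933 windows with a summit (28.9%, exact 95% interval 26.0 to 32.0%), against 2752 of all 32851 windows (8.38%). Promoter windows with a summit had a mean GC content of 60.8%, against 53.6% without one, so the shares were also read within bands of GC. Below 50% GC the core stood in 13 of 100 windows with a summit and in 2.54% without, from 50 to 60% in 26.5% and 7.53%, from 60 to 70% in 33.5% and 13.5%, and above 70% in 34.3% and 19.1%. The share with a summit was the higher in each of the 4 bands. It was 26.4% for scores under 10, 28.9% for 10 to 20 and 36.5% (27.7 to 46.0%) for 20 or more, with intervals that overlap. These and later intervals hold counting error alone, as if each summit or window were independent of its neighbours. Some windows overlap and hold the same summit, and each window was counted.

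The core lay close to the summit. In the 270 windows the median distance between core and summit was 19 bp (quartiles 10 and 36), with 164 (60.7%) within 25 bp, 215 (79.6%) within 50 bp and 25 beyond 100 bp. The nearest core read 5′ to 3′ on the gene's own strand in 175 windows and on the other strand in 95. A summit and core shared by several windows, as at Apoo and Gemin5, counted in each of them. Counting every core, 64.0% were on the gene's strand in windows with a summit, against 52.5% in windows without. Orientation matters for Ctcf because loops form mainly between sites that point at each other.

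Among the 8-letter words of promoters with H3K4me3, where mean GC was 62.6% with a summit and 62.3% without, those with the largest difference in share were chosen after all words were counted. GGGGGCGC, on either strand, was in 24.4% of the 774 promoters with a summit and in 5.71% of the 13109 without. AGGGGGCG was in 29.7% with a summit and 11.1% without, CAGGGGGC in 17.1% and 3.94%, and AGAGGGCG in 17.3% and 5.07%. GGGGGCGC, AGGGGGCG and CAGGGGGC overlap one another and run through the G-rich part of the known Ctcf motif, as in the stretch of Rapgef1.

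Summits lay just upstream of starts. Within 2 kb of a coding start were 2186 summits (10.7%), 1472 of them upstream (67.3%, 65.3 to 69.3%). The 200 bp before the start held 593 and the 200 bp after it 118. The median score was 12.2 in the upstream stretch and 9.76 in the downstream one. Of 17492 coding genes with a promoter in the table, 2030 (11.6%) had a summit within 2 kb of the start, 1331 (7.61%) within 2 kb of the downstream end and 283 at both.

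**Figure D1:**
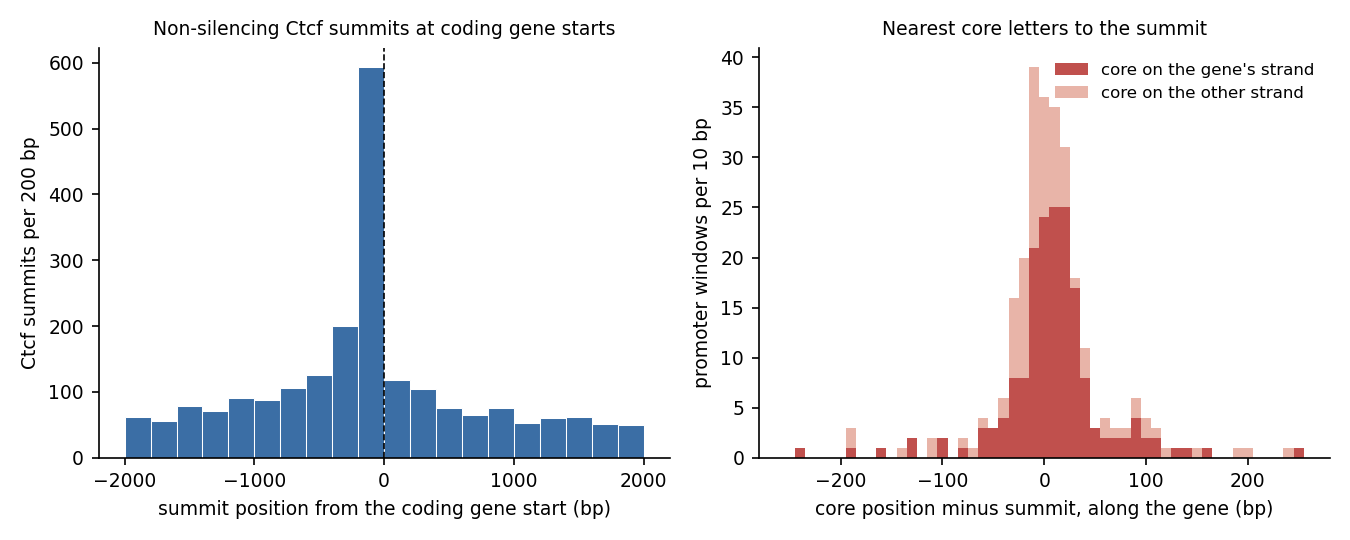
Left, number of non-silencing Ctcf summits per 200 bp (y axis) by position from the nearest coding gene start (x axis, bp, negative upstream, dashed line at the start). Right, number of promoter windows per 10 bp by the position of the nearest full core relative to the summit along the gene (x axis, bp), with dark red for cores on the gene's strand and light red for the other strand. The tallest bar on the left, 593 summits, is the 200 bp before the start. In 164 of the 270 windows on the right the core lies within 25 bp of the summit.

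Seen across the genome, most summits were away from promoters. Within 2 kb of either end of a coding gene lay 3819 summits (18.6%, 18.1 to 19.2%). A further 8011 (39.1%) were inside a coding gene and farther than 2 kb from any end, and 8653 (42.2%) were outside coding genes and farther than 2 kb from their ends, some of them inside noncoding genes. In all 9796 (47.8%, 47.1 to 48.5%) were inside a coding gene, and 2218 (10.8%) were over 50 kb from any. The share near a gene end was 17.8% for scores under 5, 16.9% for 5 to 10, 19.7% for 10 to 20, 24.9% for 20 to 50 and 24.0% (6 of 25 summits) at 50 or more.

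The score, which the authors' peak caller gave each summit, is the −log10 of its p-value or, possibly, its q-value, and it ranks summits within the list only. Scores ran from 3.35, just above the calling limit of 3.301, to 75.6, with a median of 9.94 and quartiles of 7.59 and 13.5. Only 1 in 20 exceeded 21.4 and 25 summits reached 50. Summits just outside the limit were not analysed here. Neighbouring summits were a median of 45.5 kb apart (quartiles 14.9 and 120 kb), never nearer than 252 bp. Of 20462 neighbour pairs, 462 (2.26%) were within 1 kb, 3939 (19.3%) within 10 kb and 14501 (70.9%) within 100 kb, while 309 were over 1 Mb apart.

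**Figure D2:**
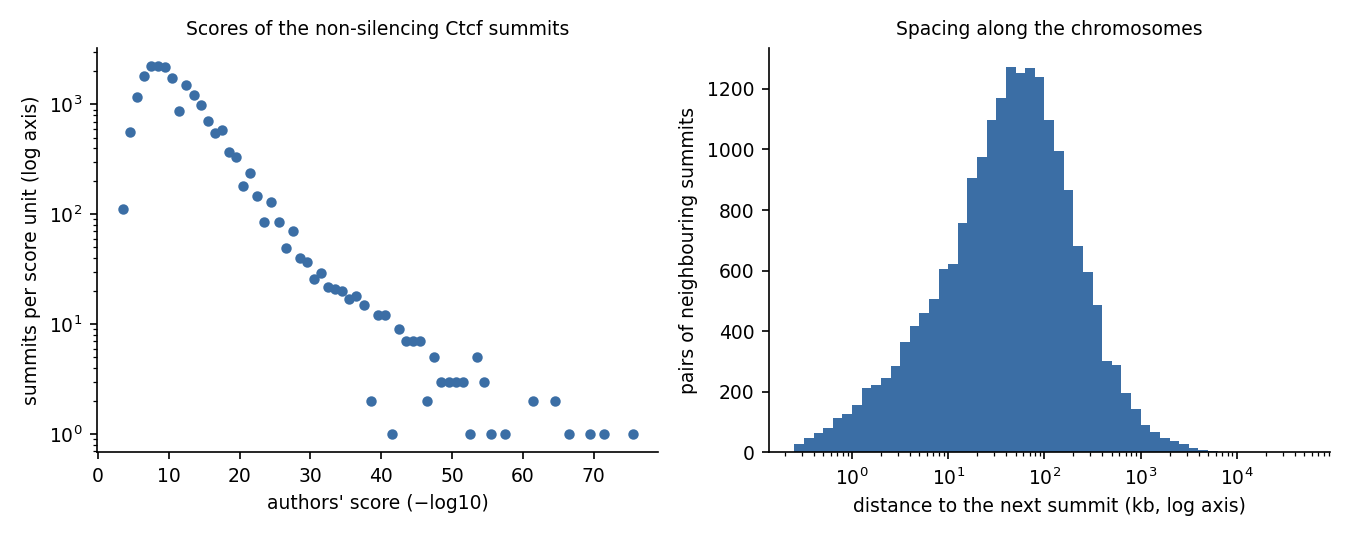
Left, number of non-silencing Ctcf summits per unit of score (y axis, log) by the authors' score (x axis, −log10). Each point is a score bin with at least 1 summit, with the median score at 9.94 and 25 summits at 50 or more. Right, number of neighbour pairs by distance (x axis, kb, log), which centres on the median of 45.5 kb.

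Density followed the chromosomes unevenly. There were 7.58 summits per Mb over all assembled chromosomes and 8.26 per Mb on the autosomes. Chromosome 11 had 12.55 per Mb and chromosome 19 had 11.1, against 6.33 on chromosome 3, although per 100 coding genes these were 95.1, 91.6 and 103. Chromosome X had 280 summits, or 1.64 per Mb and 29.0 per 100 coding genes, against 93.6 over all chromosomes. The longest stretch of X without a summit was 11.7 Mb. Y had 26 summits (0.286 per Mb). The X was also counted in 3 other lists of these male cells, and each had fewer summits per Mb there than on the autosomes. Untransduced Ctcf had 0.375 per Mb on X and 3.36 on the autosomes, null Ctcf 0.768 and 4.82, and wild-type H3K4me3 4.75 and 9.27. Male cells carry a single X and a single Y, and the part of copy number in these counts was not tested.

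The highest summits were mixed in place. The nearest coding genes of the 20 highest were Gm15319, Acbd4, Atp5g2, Eif1, Miga1, Gm52481, Niban2, Man2a2, Slc4a3, Dipk1b, Dgat2, Gdf15, Car7, Adprhl2, 4930467E23Rik, Col18a1, Gm38564, Acod1, Kcnab2 and Armc9. Of these 20 summits, 10 were inside a coding gene, 5 were over 10 kb from one, 6 had H3K4me3 within 1 kb and 7 had a summit of methylated DNA from the list named for wild type. Over all 20483 summits, 47.8% were inside a coding gene, 14.0% had H3K4me3 and 16.7% had methylated DNA of that list. The highest, at position 20424855 of chromosome 8, scored 75.6 and was 61653 bp from Gm15319. It scored 32.8 in the untransduced list and 53.8 in the null list. The second, in Acbd4, which encodes an acyl-CoA binding protein, scored 71.5, against 31.4 untransduced and 25.6 in null cells. The summit 24423 bp from Eif1, a translation initiation factor gene, scored 66.7, against 23.7 untransduced and 23.1 in null cells, and had no H3K4me3 summit within 1 kb. The summit 63 bp from an end of Man2a2, which encodes a Golgi mannosidase, scored 61.5, and the one 285 bp from Slc4a3, an anion exchanger gene, scored 57.7. Dgat2 makes triglycerides, Gdf15 is a stress-induced cytokine, Col18a1 encodes a collagen of basement membranes and Acod1 makes itaconate. Their summits scored between 53.0 and 54.7. Scores of the 3 Ctcf lists come from lists that share their control libraries and may differ in depth, so they are set side by side and not compared.

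The densest 100 kb window was on chromosome Y, from 90720739 to 90820738, beside Gm52481. It held 18 of the 26 summits of Y, with scores of 5.68 to 64.3, and there the untransduced list had 12 and the null list 14. The next were windows of 12 on chromosome 19 (Sema4g, Mrpl43, Twnk, Lzts2, Pdzd7, Sfxn3, Kazald1) and chromosome 4 (Agtrap, Draxin, Mad2l2, Fbxo6, Fbxo44, Fbxo2). Windows of 11 were found on chromosome 10 around Gng7, Diras1, Slc39a3, Sgta, Thop1 and Creb3l3 and around Stac3, Ndufa4l2, Shmt2, Nxph4 and Lrp1. The window on chromosome 19 held 12 H3K4me3 summits and the one on Y held 2.

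H3K4me3, the mark of active promoters, peaked at these summits. A wild-type H3K4me3 summit lay within 1 kb of 2877 Ctcf summits (14.0%, 13.57 to 14.53%), against 3.40% at points moved 7.5 kb to either side. The median distance was 226 bp, and 14.3% of the 23449 H3K4me3 summits had a Ctcf summit within 1 kb. The share was 11.99% for Ctcf scores under 5 (9.63 to 14.7%), 11.2% for 5 to 10 (10.6 to 11.9%), 16.2% for 10 to 20 (15.4 to 17.0%), 21.2% for 20 to 50 (18.96 to 23.48%) and 24.0% at 50 or more (9.36 to 45.1%). The intervals of the 3 middle bins do not overlap, while the lowest bin overlaps the next and the highest, of 25 summits, overlaps all. Of the 933 promoter windows with a summit, 83.0% had H3K4me3 within 1 kb, against 42.3% of all windows.

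Methylated DNA, captured with the part of the protein MBD2 that binds methyl-CpG (MBD), was listed close to few of these summits. The labels of the MBD libraries and the names of their lists conflict, so the lists are called by their own names, wild type and D1, with no genotype read from them. Per 1000 Ctcf summits, the wild-type-named list had 3.47 MBD summits per 200 bp within 200 bp of Ctcf, against 24.8 from 1 to 5 kb away. The D1-named list had 2.88 and 20.5. The level at Ctcf was 14.0% of the flanking level in both lists. At Ctcf summits with H3K4me3 it was 6.11% of the flank in the wild-type-named list and 3.76% in the D1-named list. At those without H3K4me3 it was 15.1% in the wild-type-named list and 15.5% in the D1-named list, so the dip was also present away from that mark. By Ctcf score, the wild-type-named list stood at 18.7% of its flank under 10, 9.48% from 10 to 20 and 11.1% at 20 or more. The D1-named list stood at 20.4%, 8.33% and 8.39% in the same order of scores. At scores of 20 or more only 8 MBD summits of the wild-type-named list and 5 of the D1-named list lay within 200 bp. Within the wider 1 kb, 3415 Ctcf summits (16.7%) had MBD in the wild-type-named list and 2834 (13.8%) in the D1-named list, against 20.4% and 17.1% of the moved points for the same lists.

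Smchd1, a chromatin protein of the SMC family that represses gene clusters, had a small list of 407 summits at a threshold of 5e-4, called against null cells. Of these, 175 (43.0%, 38.1 to 48.0%) had a non-silencing Ctcf summit within 1 kb. Seen from Ctcf, 173 summits (0.845%, 0.724 to 0.980%) had Smchd1, against 0.0513% at the moved points, with a median distance of 20 bp. Per 1000 Ctcf summits, Smchd1 summits numbered 3.93 per 200 bp within 200 bp and 0.0757 from 1 to 5 kb away, a ratio of 51.9. The highest Ctcf summits with Smchd1 were those near Gm38564 (53.0), in Kcnh1 (42.4), near the adhesion protein gene Hepacam2 (37.9), near the imprinted gene Mkrn3 (33.7) and in Lnp1 (31.6). Smchd1 stood at 52 of the 2877 Ctcf summits with H3K4me3 (1.81%, 1.35 to 2.36%) and at 121 of the 17606 without it (0.687%, 0.571 to 0.821%).

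H3K27me3, the Polycomb mark, was within 1 kb of 21 Ctcf summits (0.103%, 0.0635 to 0.157%), against 0.132% at the moved points. Its summits can lie in groups, with 47 in HoxA and 20 kb of flank, so a point moved 7.5 kb can stay among them. The moved points therefore cannot show whether Ctcf is in excess in such groups. The wild-type H3K27me3 list had only 732 summits. The highest of the 21 Ctcf summits by Ctcf score lay inside Kif26a (35.1) and Hoxa3 (18.6). The next were nearest to the homeobox genes En2 (16.2, 42454 bp away), Uncx (15.0, 7410 bp) and Lbx1 (14.3, 7673 bp). After them came Foxd3 (13.4, 2527 bp), which encodes a factor of the neural crest. Over all these lists, 14218 Ctcf summits (69.4%) had no summit of H3K4me3, H3K27me3, Smchd1 or MBD within 1 kb.

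**Figure D3:**
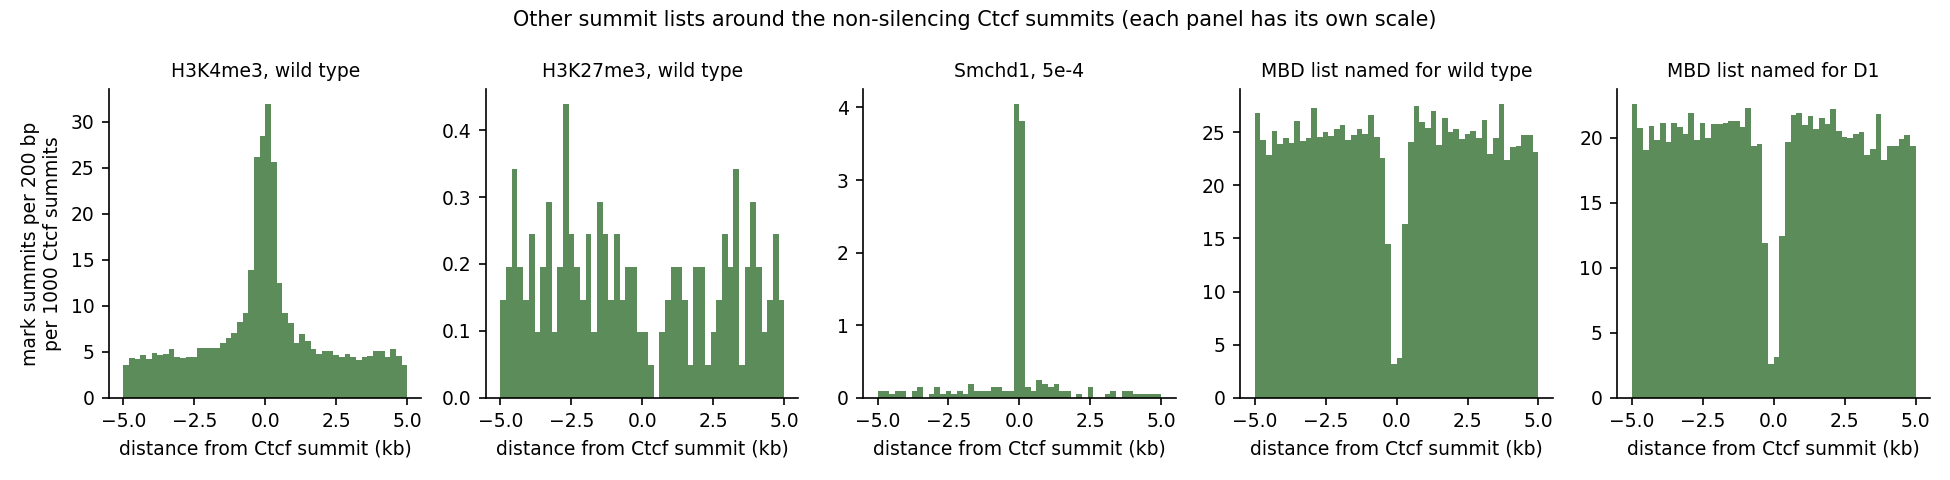
Summits of 5 other lists per 200 bp and per 1000 non-silencing Ctcf summits (y axis, own scale in each panel) by distance from the Ctcf summit (x axis, kb). H3K4me3 and Smchd1 peak at the Ctcf summit, reaching 30.2 and 3.93 within 200 bp. Both MBD lists dip to 14.0% of their flanks, and H3K27me3 has few summits throughout.

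Genes were then read as listed where a non-silencing Ctcf summit lay within 2 kb of either end. That held for 3918 of 21887 coding genes, or 17.9%. H3K4me3 was within 2 kb of 12758 coding genes (58.3%). Of these, 24.8% had a Ctcf summit, against 8.23% of the 9129 coding genes without H3K4me3.

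Ribosomal protein genes, which every growing cell transcribes, were listed in 30 of 83 cases (36.1%, 25.9 to 47.4%), and 80 of the 83 had H3K4me3. Their highest were Rpl22 (28.6, against 27.1 untransduced and 13.2 null), Rpl36 (23.3), Rpl19 (22.8) and Rps3a1 (22.3). Solute carriers, which move ions and nutrients across membranes, were listed in 86 of 371 (23.2%, 18.98 to 27.81%), led by Slc4a3 and by the heme transporter gene Slc48a1 (42.5). At the other end, 8 of 1106 olfactory receptor genes (0.723%), 1 of 353 vomeronasal receptor genes and 2 of 49 keratin genes were listed, groups with H3K4me3 at 0, 3 and 3 genes. Zfp zinc finger genes were listed in 44 of 394 (11.2%, 8.23 to 14.7%) and histone cluster genes in 7 of 67 (10.4%), although 328 and 62 of them had H3K4me3. Among the members with the mark, 41 of 328 Zfp genes (interval 9.12 to 16.6%) and 7 of 62 histone genes (4.66 to 21.9%) were listed, against 24.8% of all coding genes with the mark.

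The genes of Ctcf and of cohesin, its partner in loop formation, were listed in 6 of 16 cases (37.5%, 15.2 to 64.6%, an interval that includes the 17.9% of all coding genes and the 24.8% of those with H3K4me3). They were Pds5a (17.6) and Pds5b (12.2), which regulate the ring's release, the ring subunit gene Smc3 (16.6), Stag2 (13.4), Esco1, an acetyltransferase of Smc3 (10.9), and Ctcf itself. The Ctcf summit of the Ctcf gene lay 344 bp from a gene end on chromosome 8 and scored 9.58, against 13.4 untransduced and 17.3 null. Its neighbours Ripor1 and Carmil2 had summits of 36.6 and 16.0. The ring genes Smc1a and Rad21 had none, nor did Ctcfl, the germ cell relative of Ctcf. Of 14 genes of proteins known to work with Ctcf, 4 were listed (28.6%, 8.39 to 58.1%, which includes both shares too), the chromatin factor gene Adnp (25.6), Patz1 (23.9), the remodeller gene Chd8 (15.9) and Zbtb33 (6.86), while Yy1, Zfp143 and Maz were not.

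Genes used to check the cell type were read from H3K4me3, which 24 of 25 neural stem cell genes had, as did 13 of 20 neuron, 4 of 12 glia, 2 of 13 microglia and blood, and 2 of 13 endothelium and mesenchyme genes, against 58.3% of all coding genes. Ctcf was listed at 6 of the 25 stem cell genes (24.0%, 9.36 to 45.1%, against 17.9% of all coding genes), namely Hes1 (21.4), an effector of Notch, the RNA-binding protein gene Msi1 (16.6), Nes, which encodes nestin (13.4), Olig2 (11.8), Slc1a3 (8.15) and Vim (6.17). Sox2, Pax6 and Olig1 had none. Neuron genes were listed in 5 of 20 cases, led by the proneural factor gene Neurog2 (14.55), and glia genes in 1 of 12, and both intervals include 17.9%. Microglia and blood genes were listed in 2 of 13 cases (15.4%, 1.92 to 45.4%). Endothelium and mesenchyme genes were listed in 3 of 13 (23.1%, 5.04 to 53.8%), and both of these intervals include 17.9% too. Spi1, the myeloid master factor gene, had the highest score of all these markers (40.1, against 15.3 untransduced and 20.9 null), and its H3K4me3 score was 17.4. Aif1, the other listed gene of its group, scored 6.11, while Cx3cr1, Csf1r and P2ry12 had no Ctcf summit.

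For a further 6 groups the interval of the share included the 17.9% of all coding genes. Polycomb genes were listed in 6 of 20 cases, led by Pcgf2 (13.1) and Cbx2 (11.9), DNA methylation genes in 3 of 15 (Mbd4 14.1, Mbd1 12.9, Dnmt3l 9.76), and cell cycle genes in 4 of 26, led by the cyclin gene Ccna2 (11.6). Developmental transcription factors were listed in 8 of 60, led by Dlx3 (16.1) and Lhx5 (13.4), and Smchd1 partners in 2 of 13. Smchd1 itself had none. Housekeeping genes were listed in 4 of 16. At Pgk1, a glycolysis enzyme gene, the non-silencing list scored 8.82, while the untransduced list scored 190.9, the highest value in it, and the null list had none.

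**Figure D4:**
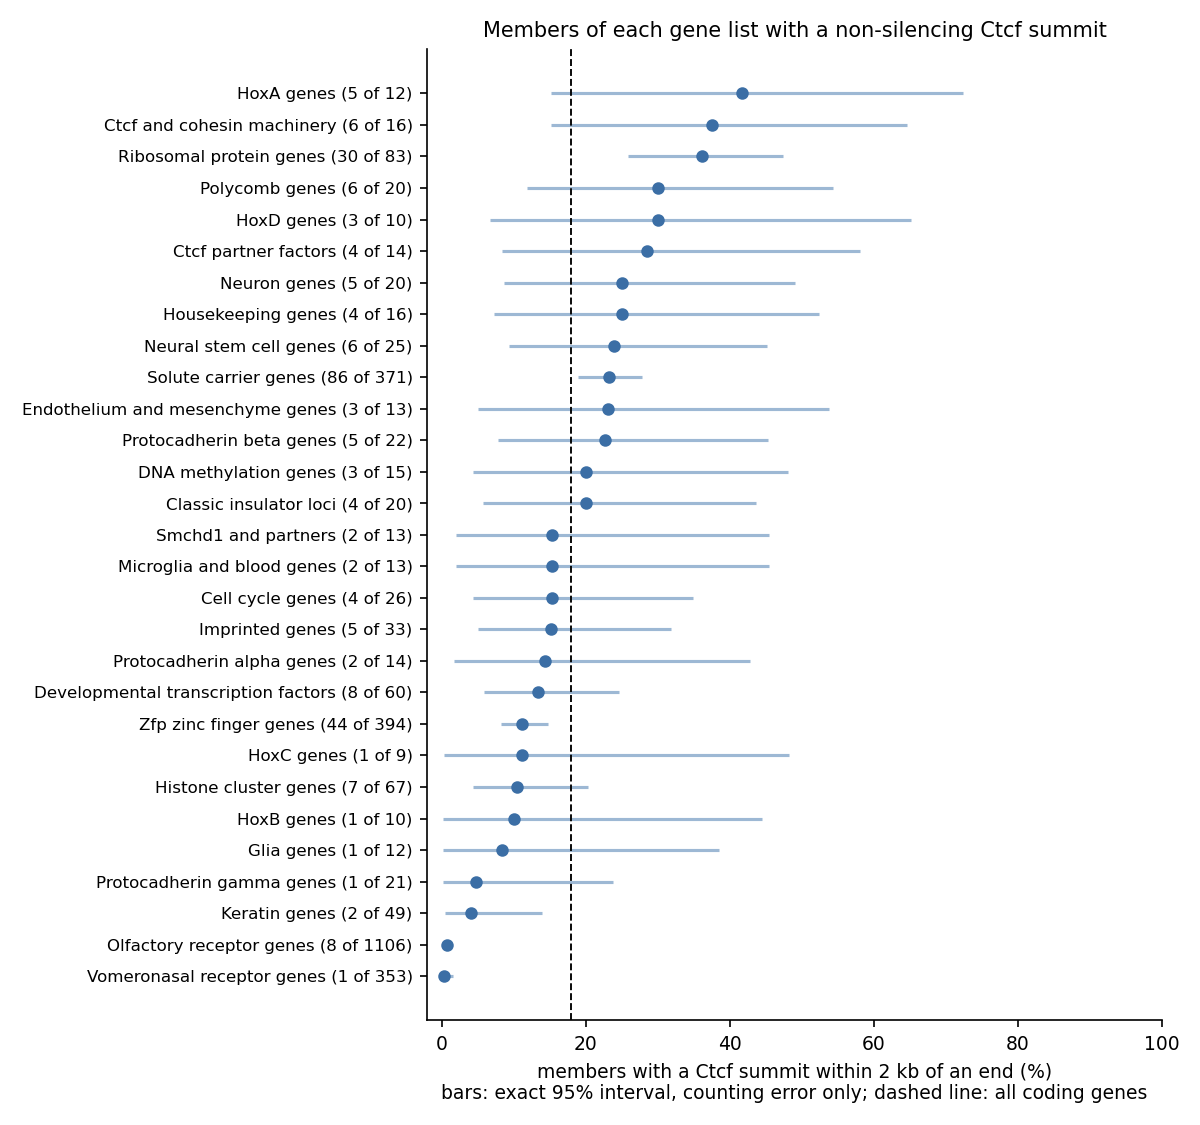
Share of annotated members of each gene list with a non-silencing Ctcf summit within 2 kb of an end (x axis, percent), with exact 95% intervals for counting error and the 17.9% of all coding genes as a dashed line. Ribosomal protein genes and solute carriers lie above the line with their whole interval, and Zfp, keratin, olfactory and vomeronasal receptor genes below it.

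Clustered protocadherins give neurons their surface identity, and Ctcf is known to act at their promoters. In the alpha cluster 2 of 14 genes were listed, Pcdhac1 with 28.2 (12.999 untransduced, 11.4 null) and Pcdha12 with 4.19. In the beta cluster 5 of 22 were listed, the highest being Pcdhb2 (10.9), and in the gamma cluster only Pcdhgc3 (12.02) of 21. The intervals of these 3 shares all include the 17.9% of all coding genes. Across the alpha cluster with 20 kb of flank, the non-silencing list had 2 summits, the untransduced list 1 and the null list 14.

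Known insulator loci followed. At the imprinted H19 and Igf2 locus, where Ctcf binds the unmethylated maternal control region, a summit stood 2156 bp upstream of H19 at position 142580302 of chromosome 7 and scored 14.7. It had H3K4me3 (14.3) and MBD in both lists (20.9 wild-type-named, 26.4 D1-named) within 1 kb, the null Ctcf list scored 4.47 there, and the untransduced list had none. H19 and Igf2 themselves had no summit within 2 kb. That combination was rare, as H3K4me3 and both MBD lists stood within 1 kb of 176 Ctcf summits (0.859%). Of the 29 summits within 5 kb of imprinted genes, 4 were of that kind. Besides the H19 one they were at the Peg3 and Usp29 start (9.76, with H3K4me3 of 27.02), in Mest (16.4) and in Inpp5f (16.6). Within 2 kb, 5 of 33 imprinted genes were listed (15.2%, against 17.9% of all coding genes), led by Peg13 (10.9). Of 20 genes of known insulator loci, H19 and Igf2 among them, 4 were listed (20.0%, 5.73 to 43.7%, an interval that includes 17.9%), Trp53 (36.6, the summit in the Wrap53 window), App (16.6), Epha4 (13.5) and Myc (8.998).

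The Hox clusters, which set position along the body axis, held 17 summits with 20 kb of flank. HoxA had 7, HoxB 3, HoxC 2 and HoxD 5. Of the 17, 16 had Smchd1 within 1 kb, 4 had H3K27me3, 2 had H3K4me3 and 0 had MBD of either list. Over all 20483 summits the shares were 0.845% for Smchd1, 0.103% for H3K27me3 and 14.0% for H3K4me3. For MBD they were 16.7% in the wild-type-named list and 13.8% in the D1-named list. The H3K4me3 count at the Hox clusters was thus near its share over all summits. In HoxA the highest summit, 18.6, stood inside the Hoxa3 annotation, 1337 bp from an end of it and 3058 bp from Hoxa6. Another of 10.6 stood between Hoxa7 and Hoxa9, where the untransduced list scored 8.01 and the null list 15.7. The untransduced list had 3 summits in HoxA, 2 in HoxB, 1 in HoxC and 2 in HoxD, and the null list 1, 5, 1 and 5. Hoxa3, Hoxa9 (10.6), Hoxa13 (9.23), and Hoxa5 and Hoxa6, which share a summit (8.99), were listed within 2 kb, as were Hoxb8 (10.9), Hoxc10 (7.23), Evx2 (12.02), Hoxd12 with Hoxd13, which share another (5.43). That made 5 of 12 genes of the HoxA list, 1 of 10 for HoxB, 1 of 9 for HoxC and 3 of 10 for HoxD. The intervals of these 4 shares all include the 17.9% of all coding genes. The highest summit in HoxC, 16.0, was 2915 bp from Hoxc8.

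**Figure D5:**
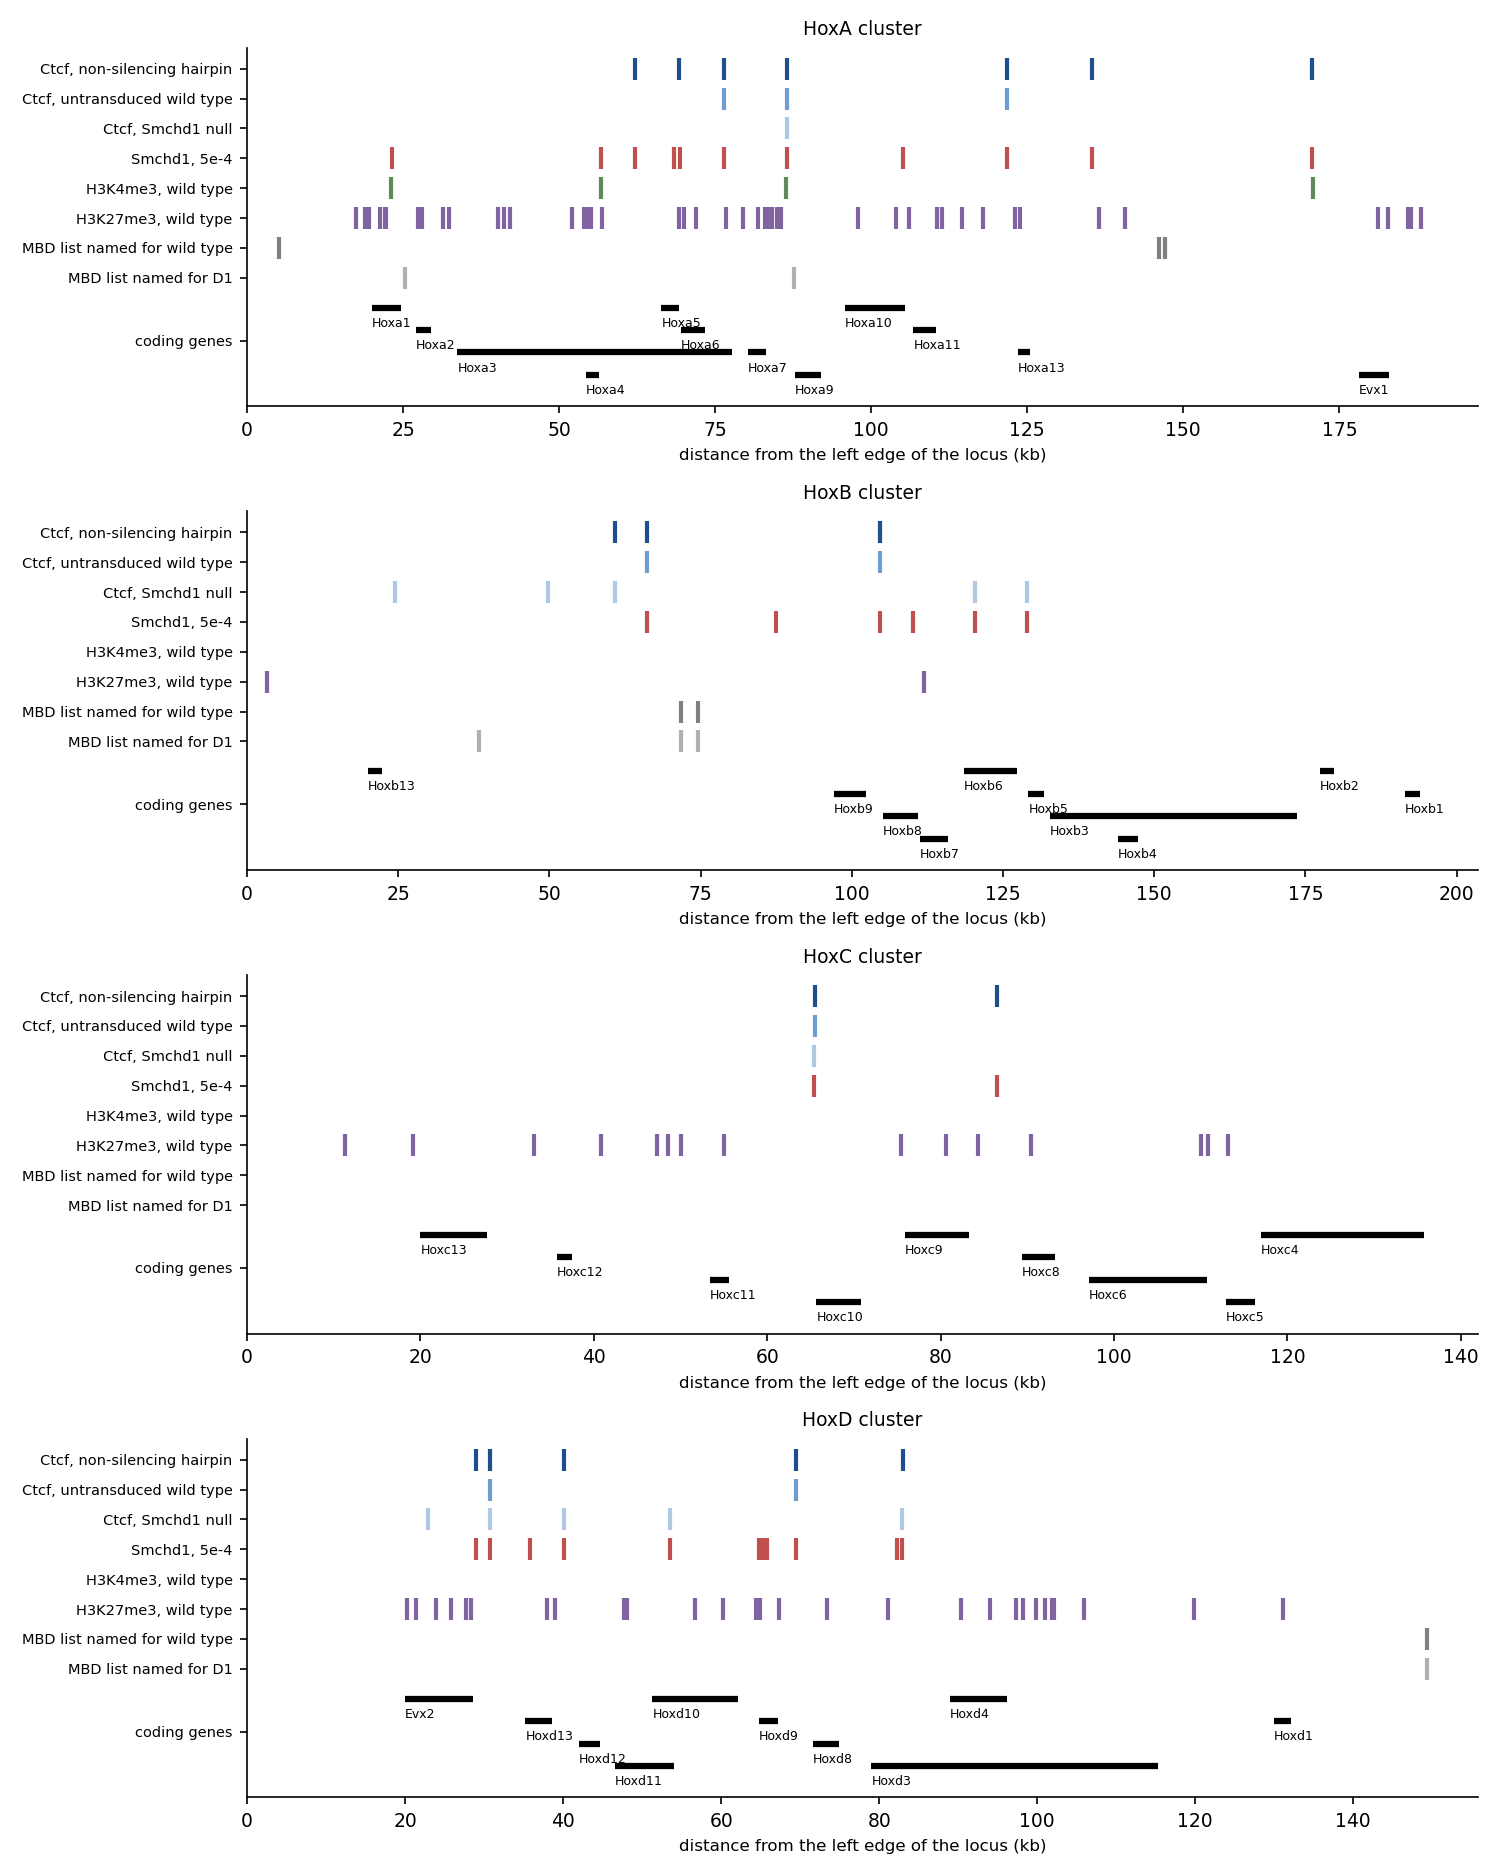
Summits of 8 lists (rows, ticks) and coding genes (black bars) across the 4 Hox clusters with 20 kb of flank, by distance from the left edge (x axis, kb). Of the 17 non-silencing Ctcf summits in the top rows, 16 stand above a Smchd1 tick within 1 kb, against 0.845% of all such summits.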

How the data were processed

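Ctcf ChIP-seq libraries were made from crosslinked, sonicated chromatin, per the labels' protocols. Base calling used CASAVA 1.4, the peak caller was MACS2 (version 2) and coordinates are those of mm10, according to the submitters' processing notes. The aligner, not given in the sources used here, is unknown. Each deposited list holds 1 bp summits with a score that is the −log10 of a p-value or of a q-value from the authors' caller. The sources used here do not say which. The calling thresholds were 5e-4, with a second Smchd1 list at 5e-3. Per the labels, the libraries of a group were pooled and the Ctcf lists were called against the Ctcf hairpin libraries, Smchd1 against Smchd1 ChIP in null cells, and the histone marks and MBD against whole cell extract. Libraries that were deeper or more enriched give longer lists, and depth per library is unknown.

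Members and gene lists were chosen with earlier results of these data known. The 15 summits on unplaced contigs were left out. A summit counted as near a gene within 2 kb of either end (RefSeq, GRCm38.p6) and as sharing a mark within 1 kb, beside the same count at points moved by 7.5 kb. Shares carry exact 95% binomial (Clopper-Pearson) intervals, and no p-values were computed. Cores were searched on both strands. Genes were named as nearest to the 20 highest summits, as the 10 highest promoters, as up to 4 listed and 3 unlisted members of each gene list (all 6 stem cell and cohesin genes are given, chosen after their values were seen), in the 5 densest windows, and at the marks and loci described. Python 3.11.15, numpy 2.4.6, pandas 2.3.3, scipy 1.17.1 and matplotlib 3.10.9 were used. Distance, overlap, merging and motif steps were tested on simulated data and returned the known answer in 300 of 300 cases each. Alternatives changed the distances, score limits, merging, Smchd1 list and core.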

Additional observations from a re-analysis of the deposited data

Results flagged for a closer look

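The non-silencing Ctcf list also held 15 summits on 10 unplaced contigs, which no comparison used and which exceed the limit that a count of 0 allows. Their scores ran from 4.08 to 59.8, with a median of 11.2. Their genes were not analysed here.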

How the results depend on the processing

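Of 44 alternatives to the named results, 21 stayed within 1.5 times the count or within the interval of the share, and 23 moved. A score limit of 10 gave 10189 summits, 20.4% near a coding gene end, 16.9% with H3K4me3, 2266 coding genes and a median spacing of 87.6 kb. Merging neighbours within 1 kb gave a spacing of 47.5 kb. At 1 kb and 5 kb from gene ends the shares were 12.1% and 32.6% and the coding genes 2565 and 6655. At 250 bp and 2 kb, shares were 7.69% and 17.3% for H3K4me3, 0.0195% and 0.225% for H3K27me3, 1.34% and 31.9% for the wild-type-named MBD list and 1.04% and 27.3% for the D1-named one. Marks scoring at least 5 gave 0.0391% for H3K27me3 and 0.688% for Smchd1, and the 5e-3 Smchd1 list gave 1.92%. The shorter core stood in 61.5% of promoters with a summit and 29.4% of all. Wider distances, the looser Smchd1 threshold and the shorter core can only add, while the cause of the higher shares at a score of 10 was not tested. For the gene lists, 37 of 58 alternatives moved a count by over 1.5 times, many counts being small.

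No paired analysis was possible because the authors pooled the libraries into 1 list per group, and for the same reason no replicate was left out. Depth is unknown and scores rank summits within a list only. Sites without a called excess of Ctcf signal over the Ctcf hairpin libraries are not in the list, weaker sites among them. How much Ctcf the listed sites kept in the cells with Ctcf hairpins was not tested.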
